A study of Rattus norvegicus with 9 samples.

Results

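The miR-10, miR-99/100 and miR-125 families were followed in the serum of male wild-type Sprague-Dawley (SD) rats, taken 4 weeks after surgery. In the PAB group (n = 6) the pulmonary artery had been narrowed by a band, which loads the right ventricle (RV) with pressure, and in the sham group (n = 3) the rats had a sham operation. Each library came from the serum of a rat, and the young rats were randomized to the groups at surgery. Banding is a mechanical load on the RV and not a disease of the lung vessels. The members were every miRNA named miR-10a, miR-10b, miR-99a, miR-99b, miR-100, miR-125a or miR-125b, whatever its arm or locus, in the deposited table of 276 miRNAs. There were 11 such miRNAs, 2 of the miR-10 family, 4 of the miR-99/100 family and 5 of the miR-125 family, and none carried the name miR-10b.

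A mature miRNA guides a silencing complex to messenger RNAs that pair with its seed, the bases near its 5′ end, and lowers their stability and translation. The miR-10 and miR-99/100 families are old relatives with similar sequences, and miR-125 is the vertebrate counterpart of the worm miRNA lin-4. miR-10 genes lie inside the Hox clusters, and miR-10a acts in endothelium, where it restrains inflammatory signalling. miR-99a, miR-99b and miR-100 repress the kinase mTOR and IGF1 receptor signalling, and miR-125 members act in blood stem cells, vascular smooth muscle and differentiation. These families are abundant in vascular and stromal cells. Serum collects RNA from blood cells and all tissues, so that fewer releasing cells and less RNA released per cell cannot be told apart.

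The mature sequences of the members with more than 1 read are shown, apart from miR-99a-5p. Their seeds sort them into families and their likeness limits how reads can be assigned. RefSeq gave a mature sequence for 10 of the 11 members on the rat assembly GRCr8 (all on the + strand). The most abundant member, miR-99a-5p, was not matched, so that its likeness to miR-100-5p and the others was not measured. Capitals mark the seed, bases 2 to 8 from the 5′ end.
rno-miR-10a-5p: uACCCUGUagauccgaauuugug
rno-miR-100-5p: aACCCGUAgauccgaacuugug
rno-miR-99b-5p: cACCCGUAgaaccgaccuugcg
rno-miR-125a-5p: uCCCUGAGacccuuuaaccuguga
rno-miR-125b-5p: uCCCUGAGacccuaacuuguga
rno-miR-99b-3p: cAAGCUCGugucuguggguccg

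miR-100-5p and miR-99b-5p had the same seed and differed at 4 bases (A1C, U11A, A16C and U21C, with the base of miR-100-5p first and positions counted from its 5′ end). miR-10a-5p has another seed, although an alignment of it to miR-100-5p needed only 3 edits (substituted or gapped bases). miR-125a-5p and miR-125b-5p shared a seed and were also 3 edits apart. Reads of such close relatives may have been shared among them, and how reads that match several miRNAs were handled is not given in the sources used here.

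The precursors lie in small groups with let-7 genes between them. Mir99b (chr1:67350064-67350133) was followed by Mirlet7e after 95 bases and by Mir125a (chr1:67350675-67350759) after 541 bases, and both members lie within the gene Spaca6. Mir100 (chr8:50798295-50798374) stood 6828 bases before Mirlet7a-2 and 51661 bases before Mir125b1 (chr8:50850036-50850122). Mir99a (chr11:29687392-29687472) stood 639 bases before Mirlet7c1, and the table places miR-125b-5p at Mir125b2 on the same chromosome (chr11:29732588-29732609). The 22 bases of miR-125b-5p also occur in the Mir125b1 precursor, so its reads belong to neither locus in particular. Mir10a (chr10:81779709-81779818) lay between the coding genes Hoxb5 and Hoxb4. These positions are on GRCr8, while the paper names Rnor_6.0 for the alignment.

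The libraries held 19477 to 64455 miRNA reads in the PAB group and 56231 to 65313 in the sham group. In RPM, the reads that the authors scaled to the size of each library, summed miRNAs were lower in the PAB group than in the sham group (2598 ± 1135 and 4128 ± 950 RPM, SD, n = 6 and 3). miRNA reads were thus a small part of each library, 0.101% to 0.412% in the PAB group and 0.332% to 0.517% in the sham group. Sham libraries 1 and 2 held the most different miRNAs (173 and 217, against 81 to 131 in the PAB group and 129 in sham library 3), and several results below rest on these libraries. The summed level of 5 blood cell miRNAs was 47.9 to 420.3 RPM in the PAB group and 8.08 to 229 RPM in the sham group, and the other 3 of that list (miR-144-3p, miR-142-3p and miR-142-5p) were not among the 276 names. The summed level of 12 other vascular and stromal miRNAs, such as miR-126a and miR-221, was 1.56 to 41.0 RPM in the PAB group and 18.4 to 104 RPM in the sham group. The liver miRNA miR-122-5p was at 0 in PAB libraries 4 and 5. It was at 41.0, 93.6, 95.1 and 106 RPM in PAB libraries 1, 2, 3 and 6, within the 29.98 to 162 RPM of the sham group. The part of these levels in the results was not tested.

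The 11 members together held 6945 reads, of which 6927 were on the 5p arms and 18 on the 3p arms. miR-99a-5p (2403 reads) and miR-99b-5p (2392 reads) were the most abundant, followed by miR-10a-5p (1268), miR-100-5p (581), miR-125b-5p (167) and miR-125a-5p (116). Among the 3p arms, miR-99b-3p had 14 reads, and miR-10a-3p, miR-125a-3p, miR-125b-1-3p and miR-125b-2-3p had 1 read each, every one of them in sham library 1 or 2. These 4 did not pass the filter for testing. The number of members with reads was 5 to 7 in the PAB libraries and 9, 9 and 5 in the sham libraries. At the smallest total of 19477 miRNA reads, 3.60 to 6.26 members would be found in the PAB libraries and 7.51, 7.48 and 4.56 in the sham libraries. Sham library 3 thus lay among the PAB libraries in this number.

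Summed over the members, all 6 PAB libraries were lower in RPM than all 3 sham libraries. Of the single miRNAs tested below, 9.88% separated the groups in this direction and 0% in the other. That share is of single miRNAs and gives no background for a sum. Among the tested members miR-10a-5p alone separated the groups. The mean of log2(RPM + 0.1) was lower in the PAB group for 82.1% of the single miRNAs, so this direction is not particular to the members. Some of these had a higher mean RPM in the PAB group, such as miR-16-5p (45.2 against 13.2 RPM). The members had 1.89 to 51.7 RPM (median 20.9) in the PAB group, against 87.5, 98.4 and 120.0 RPM in sham libraries 1 to 3. As a share of miRNA reads the groups overlapped. The share was 1.15% ± 1.19 in the PAB group and 2.61% ± 0.966 in the sham group (SD, n = 6 and 3). PAB library 1 had 3.04% (95% Wilson interval 2.81 to 3.30, counting error only), above the 1.69% (1.596 to 1.79) of sham library 1 and the 2.53% (2.41 to 2.65) of sham library 2 and below the 3.62% (3.47 to 3.78) of sham library 3. PAB libraries 4 and 5 had only 0.0581% (0.0405 to 0.0834) and 0.0876% (0.0670 to 0.115). On the log2 scale the mean share differed by −2.28 between PAB and sham (pooled SD within the groups 2.04), and by −2.79 to −1.65 with any 1 library left out. PAB libraries 4 and 5 were never left out together, so this range does not show how far the difference rests on both.

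**Figure D1:**
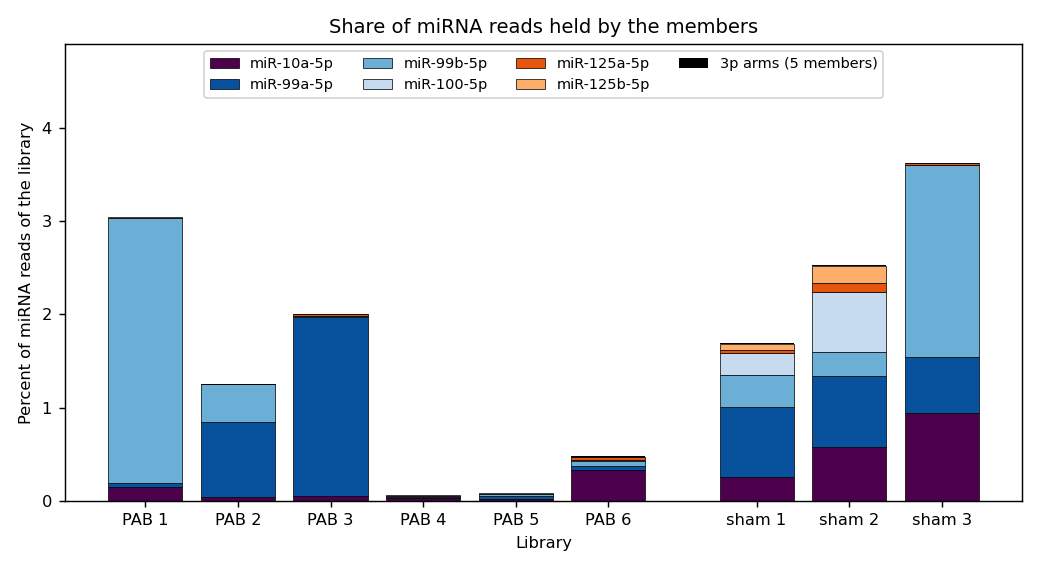
Share of the miRNA reads of each library (y axis, percent) held by the members, as stacked bars for the 6 PAB and the 3 sham libraries. The PAB bars run from 0.0581% in library 4 to 3.04% in library 1 and are mostly miR-99a-5p or miR-99b-5p where they are tall, whereas the sham bars (1.69%, 2.53% and 3.62%) also hold miR-10a-5p in each library and miR-100-5p in libraries 1 and 2.

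No member passed the test for a change after PAB. The test was edgeR's quasi-likelihood test on the reads with TMM normalization, over the 162 miRNAs with reads in 3 or more of the 9 libraries. A call needed an adjusted p (Benjamini-Hochberg over the 162) of at most 0.05 and |log2FC| of at least 1, with log2FC as PAB over sham. Of the 7 members tested, 0 were lower, where 1.23% of all tested miRNAs were, and 0 were higher, where 0% were. All 7 had a log2FC below 0, where 53.1% of all tested miRNAs had, and their median was −2.45 against −0.15 for all tested. At an unadjusted p under 0.05 in edgeR, 1 member was lower (miR-100-5p), where 10.5% of all tested miRNAs were. DESeq2 on the same miRNAs called 1 member lower (miR-100-5p), where it called 3.09% of all, and limma-voom called 0. DESeq2 with its default filters on all 276 miRNAs also called miR-100-5p alone among the members, where it called 0.429% of the 233 with an adjusted p lower. Scaled to the library totals that RPM implies, edgeR called 1 member lower, miR-99b-3p, where it called 14.2% of all.

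The choice of scale shifted the median of all miRNAs, and single members by other amounts. The TMM factors were 0.701 to 1.15 in the PAB libraries and 1.80, 2.17 and 0.614 in sham libraries 1 to 3. A higher factor lowers the scaled reads of a library, so TMM moved the sham libraries in opposite directions. Over all tested miRNAs the median log2FC was −0.15 under TMM, −0.85 under total miRNA reads and −1.54 under the totals implied by RPM. Relative to that median, miR-100-5p stood at −5.03, −5.41 and −5.67, miR-10a-5p at −2.45, −1.66 and −1.78, and miR-99a-5p at 0.06, 0.29 and 0.18. miR-125b-5p stood at −2.30, −2.85 and −2.99 and miR-125a-5p at −1.78, −1.75 and −1.84. Under all 3 scales miR-99a-5p was within 0.29 of the median, miR-99b-5p (−0.65, 0.18 and −0.48) changed sign, and the other tested members were below the median.

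miR-10a-5p was the member whose RPM separated the groups. It had 29, 29, 14, 15, 12 and 97 reads in PAB libraries 1 to 6, against 166, 376 and 530 reads in sham libraries 1 to 3. In RPM this is 0.626 to 7.56 (median 1.24) in the PAB group, against 13.1, 22.5 and 31.3 in the sham group. Every PAB library was below every sham library, which held in this direction for 9.88% of all tested miRNAs, while 0% had every PAB library above every sham library. The means were 2.24 ± 2.64 RPM in the PAB group and 22.3 ± 9.05 RPM in the sham group (SD, n = 6 and 3), a 9.96-fold higher mean in sham. On the log2(RPM + 0.1) scale, which understates changes of low values, the difference was −3.69, and the exact permutation test (two-sided) gave p = 0.0119, the smallest p that 84 regroupings allow, and an adjusted p of 0.148 over the 162 miRNAs. On this log2 scale the difference was below 0 for 82.1% of all tested miRNAs, with a median of −1.30.

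The separation of miR-10a-5p depended on the scale. As a share of miRNA reads, PAB library 6 had 0.325% (95% Wilson interval 0.267 to 0.396), above the 0.254% (0.218 to 0.296) of sham library 1. After TMM normalization, PAB libraries 1 and 6 had 1914 and 2884 CPM (reads scaled to the TMM library size), against 1421, 2749 and 15817 CPM in sham libraries 1 to 3. The exact permutation p was then 0.0357 for shares and 0.0833 for CPM after TMM. edgeR gave a log2FC of −2.60 (standard error 2.11, adjusted p = 0.56), and −0.92 without sham library 3, which had the most reads of this miRNA.

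miR-100-5p had at most 3 reads in each PAB library and in sham library 3, and so few reads cannot be told apart from absence in serum. It had 1, 1, 1, 0, 1 and 3 reads in PAB libraries 1 to 6, against 157, 415 and 2 reads in sham libraries 1 to 3. In RPM the PAB group had 0 to 0.234 (median 0.058), against 12.4, 24.8 and 0.118 in the sham group. Sham library 3 was below PAB library 6, so that the groups overlapped through that pair alone. The means were 0.0778 ± 0.0802 RPM in the PAB group and 12.4 ± 12.3 RPM in the sham group (SD, n = 6 and 3). Its log2FC was the lowest of the members, −5.17 (standard error 1.89, adjusted p = 0.155 from edgeR), and −5.18 in DESeq2 with an adjusted p of 0.0061 on the same miRNAs and 0.0175 with its defaults on all. The exact permutation test of log2(RPM + 0.1) gave a difference of −4.62 with p = 0.0238 (adjusted p = 0.148, the lowest that any tested miRNA had). Of all its reads, 98.5% were in sham libraries 1 and 2, and without these libraries its log2FC was −0.59, where the lone sham library is assumed to vary like the PAB libraries.

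miR-99a-5p, a family member of miR-100-5p, had another pattern across the libraries. It had 519 and 510 reads in PAB libraries 2 and 3 but 8, 7, 19 and 14 reads in PAB libraries 1, 4, 5 and 6, against 492, 498 and 336 reads in sham libraries 1 to 3. In RPM the PAB group had 0.416 to 33.2 (median 1.04), against 39.0, 29.7 and 19.8 in the sham group. The PAB libraries thus fell into 2 at the sham level and 4 far below it. Its log2FC was −0.09 (standard error 2.12, adjusted p = 0.985 from edgeR), and it was −1.15 without PAB library 3 and 0.52 without sham library 3. The RPM difference of −3.39 on the log2(RPM + 0.1) scale had p = 0.131 in the exact permutation test.

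miR-99b-5p was also split among the PAB libraries, and only PAB library 2 was high in both miR-99a-5p and miR-99b-5p. It had 553 and 259 reads in PAB libraries 1 and 2 and 2, 2, 12 and 17 reads in PAB libraries 3 to 6, against 222, 168 and 1157 reads in sham libraries 1 to 3. In RPM the PAB group had 0.129 to 28.7 (median 0.976), against 17.6, 10.03 and 68.2 in the sham group, and PAB libraries 1 and 2 lay within the sham range. By reads among the 276 miRNAs it had rank 13 in PAB library 1 and ranks 40 to 53 in the other PAB libraries, against ranks 38, 56 and 10 in sham libraries 1 to 3. PAB libraries 4, 5 and 6 held neither at sham levels. Its log2FC was −0.80 (standard error 2.07, adjusted p = 0.931 from edgeR), and it was −3.20 without PAB library 1 and 2.204 without sham library 3. The RPM difference of −3.74 on the log2(RPM + 0.1) scale had p = 0.107 in the exact permutation test.

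miR-99b-3p, from the other arm of the same precursor, had 1 read in the PAB group, in library 6, against 7, 6 and 0 reads in sham libraries 1 to 3. It was thus at 0 in sham library 3, where miR-99b-5p was highest. Its log2FC was −2.46 (standard error 1.202, adjusted p = 0.324 from edgeR), and −4.03 with the totals implied by RPM (adjusted p = 0.0418). This call rests on 14 reads, 13 of them in sham libraries 1 and 2.

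**Figure D2:**
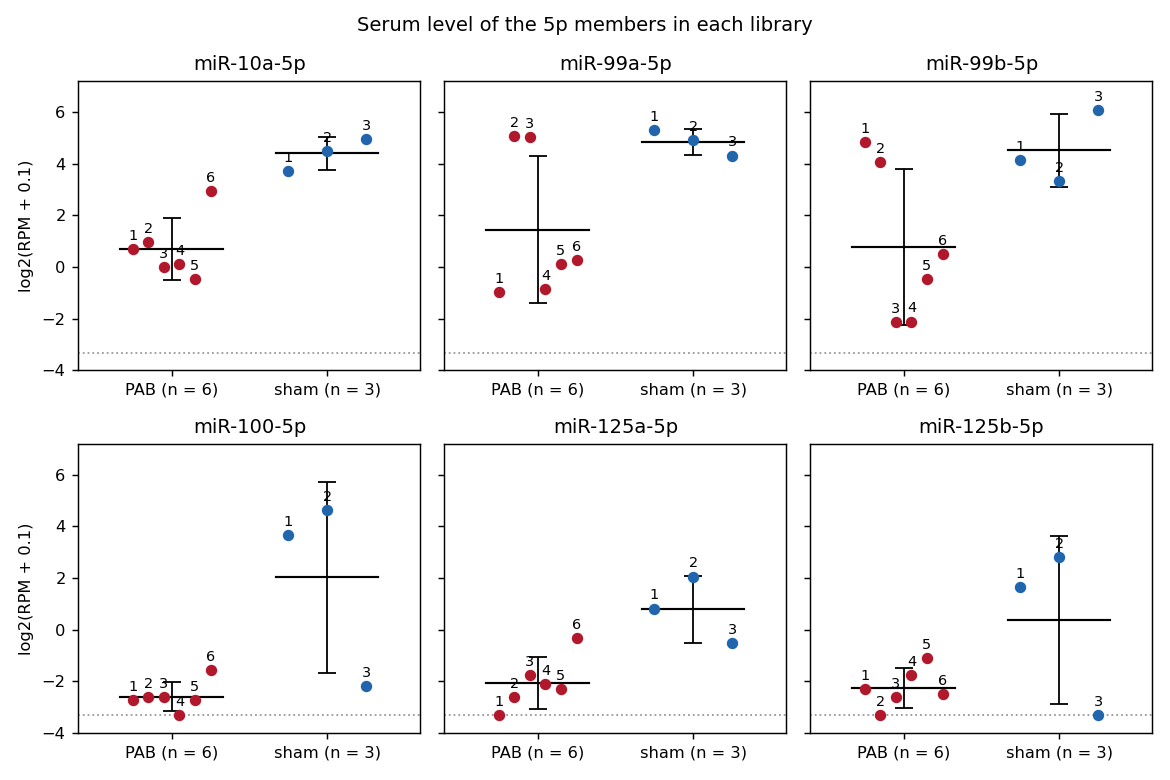
Level of the 6 members on the 5p arm as log2(RPM + 0.1) (y axis) in the PAB (left) and sham (right) libraries, with the library number above each point, the mean as a line, the SD as a bar and a dotted line at 0 RPM. miR-10a-5p separates the groups (at most 7.56 RPM in PAB, at least 13.1 in sham), miR-99a-5p and miR-99b-5p split the PAB libraries, and sham library 3 falls to 0.118 RPM of miR-100-5p and to 0 of miR-125b-5p.

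The miR-125 members were low in the PAB group and mostly found in sham libraries 1 and 2. miR-125b-5p had 2, 0, 1, 3, 7 and 1 reads in PAB libraries 1 to 6, against 38, 115 and 0 reads in sham libraries 1 to 3. The 0 of 56231 reads in sham library 3 allows a share of up to 0.00534% (3 reads of the total), and the upper limit of the 95% Wilson interval is 0.00683%. In RPM the PAB group had 0 to 0.365 (median 0.091), against 3.01, 6.87 and 0 in the sham group, so that the sham group held both the highest and the lowest values. Its log2FC was −2.45 (standard error 1.40, adjusted p = 0.351 from edgeR). Of its 167 reads, 91.6% were in sham libraries 1 and 2, and without them the fitted log2FC was 4.34, a value that depends on the prior count, since the remaining sham library had 0 reads.

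miR-125a-5p had 0, 1, 3, 2, 2 and 9 reads in PAB libraries 1 to 6, against 21, 68 and 10 reads in sham libraries 1 to 3. In RPM the PAB group had 0 to 0.701 (median 0.118), against 1.66, 4.06 and 0.590 in the sham group, with PAB library 6 above sham library 3. The means were 0.199 ± 0.254 RPM in the PAB group and 2.11 ± 1.78 RPM in the sham group (SD, n = 6 and 3). Its log2FC was −1.93 (standard error 1.26, adjusted p = 0.422 from edgeR). The exact permutation test of log2(RPM + 0.1) gave a difference of −2.85 with p = 0.0238 (adjusted p = 0.148, the lowest that any tested miRNA had). Its log2FC was below 0 in every alternative run, from −3.37 to −1.47, and no alternative called it.

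**Figure D3:**
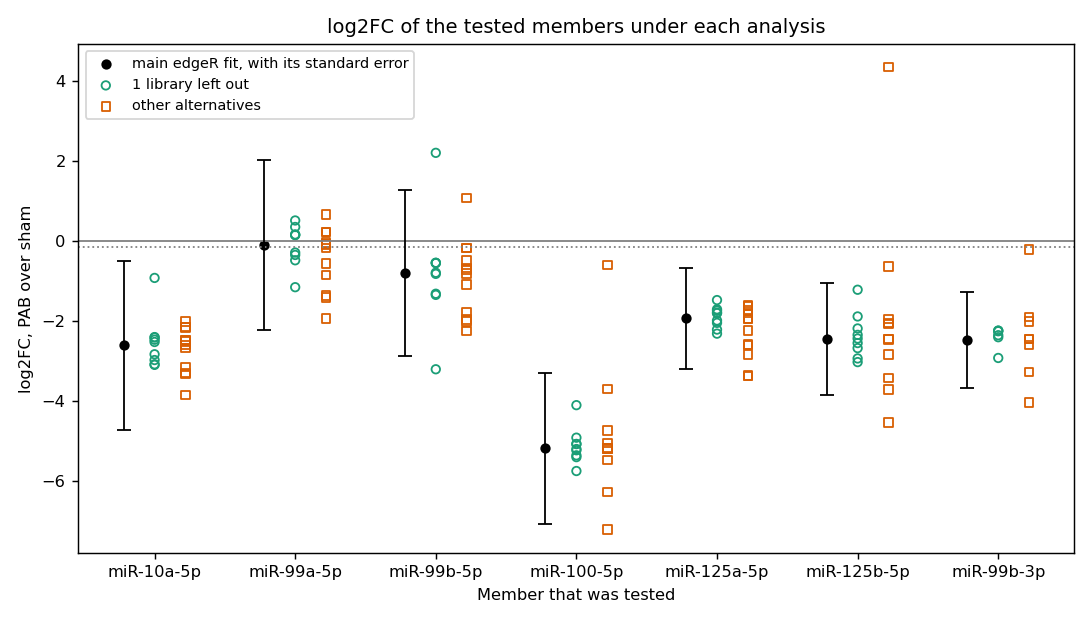
log2FC of PAB over sham (y axis) for the 7 tested members, as the edgeR value with its standard error (filled), the fits that leave out 1 library (circles) and the other alternatives (squares), with a dotted line at the median of all tested miRNAs (−0.15). miR-100-5p lies lowest at −5.17 with a square at −0.59 without sham libraries 1 and 2, miR-99a-5p and miR-99b-5p lie on both sides of 0, and the miR-125b-5p square at 4.34 is again the fit without sham libraries 1 and 2.

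The let-7 miRNAs of the genes beside the members were set beside them, with let-7c-2-3p, which comes from chromosome 7 alone, on the same list. Of the 7 listed, 6 were in the table and 4 could be tested, of which 1 had a log2FC below 0 and 0 were called by edgeR (adjusted p from 0.226 to 0.641). In mean log2(RPM + 0.1) 2 of the 4 were lower in the PAB group, where 82.1% of all tested miRNAs were. These were let-7e-5p and let-7a-5p, and mean RPM of let-7a-5p was higher in the PAB group (57.9 against 45.4 RPM). The difference between the let-7 miRNAs and the members was not tested. let-7e-5p, between miR-99b and miR-125a, was the one with a log2FC below 0. It had 1, 1, 0, 0, 0 and 5 reads in PAB libraries 1 to 6, against 20, 39 and 1 reads in sham libraries 1 to 3. In edgeR the log2FC was −2.07 (standard error 1.203, adjusted p = 0.356). let-7e-5p and miR-125a-5p were thus highest in sham libraries 1 and 2, whereas miR-99b-5p of the same group of precursors was highest in PAB library 1 and sham library 3.

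let-7a-5p, from the locus of miR-100 and from a second locus on chromosome 17, had 224, 549, 0, 0, 3221 and 1697 reads in PAB libraries 1 to 6, against 979, 982 and 1 reads in sham libraries 1 to 3. It was near 0, like miR-100-5p, in PAB libraries 3 and 4 and sham library 3, and high in PAB libraries 5 and 6, where miR-100-5p had 1 and 3 reads. let-7c-5p, encoded beside miR-99a and on chromosome 7, had 775 to 6141 reads in the PAB group, against 1461, 4277 and 361 in the sham group. Mean let-7c-5p was 191 ± 99.3 RPM in the PAB group and 131 ± 118 RPM in the sham group (SD, n = 6 and 3), with p = 0.381 in the exact permutation test. let-7e-3p had 610 reads in PAB library 4, where let-7e-5p had 0, and at most 3 reads in any other library.

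**Figure D4:**
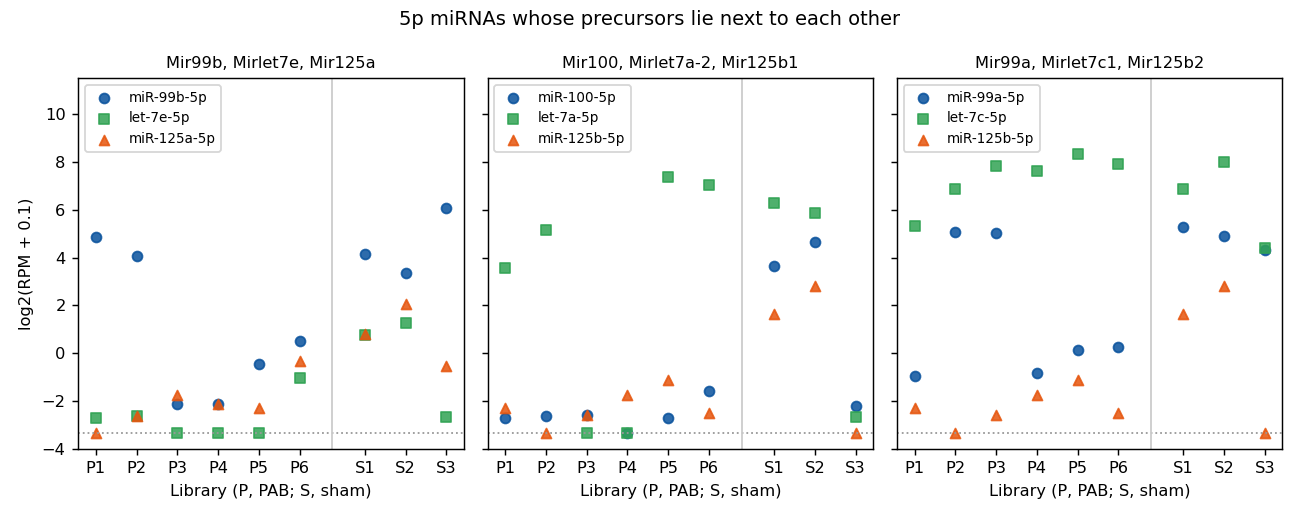
Level as log2(RPM + 0.1) (y axis) of the 5p miRNAs whose precursors lie together, in PAB libraries 1 to 6 (P) and sham libraries 1 to 3 (S), with a dotted line at 0 RPM. In the left panel let-7e-5p and miR-125a-5p stay within 0 to 0.701 RPM in the PAB group while miR-99b-5p reaches 28.7 RPM, and in the other panels let-7a-5p and let-7c-5p reach 168 and 321 RPM in PAB library 5, where miR-100-5p and miR-99a-5p have 0.052 and 0.992 RPM.

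The 12 other vascular and stromal miRNAs were set beside the members. Of the 8 that could be tested, 4 had a log2FC below 0 and 4 above (median 0.14), and 0 were called by edgeR. In mean log2(RPM + 0.1) all 8 were lower in the PAB group, where 82.1% of all tested miRNAs were. Their median difference was −1.56 on the log2(RPM + 0.1) scale, against −3.39 for the 7 tested members and −1.30 for all tested miRNAs. The 8 were spread widely around that median. miR-126a-3p, miR-222-3p, miR-21-5p and miR-221-3p stood at −3.48, −2.99, −2.70 and −2.42, within the range of the members (−4.62 to −1.50). miR-145-5p, miR-497-5p, miR-199a-3p and miR-214-3p stood at −0.69, −0.56, −0.47 and −0.11. Their sham means were 0.040 to 0.152 RPM, where the added 0.1 holds differences near 0. Whether the members differ from this list was not tested.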

How the data were processed

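Serum RNA was made into small RNA libraries by ligation of adaptors and PCR and read as single ends of 50 bases. The authors deposited a table of counts (whole reads per mature miRNA, not normalized) and of RPM, the same reads scaled by the authors to a total per library that the table does not hold (12625500 to 19249200 reads, computed from the ratio of the columns). The paper gives the alignment as Bowtie to Rnor_6.0. In the submitters' processing notes the aligner is Bowtie2 2.2.9 and the build is GRCh38.p13. Of the 276 miRNAs, 58 are predictions of the authors.

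The counts were tested with edgeR 4.0.16 (TMM, quasi-likelihood) in R 4.3.3, with the alternatives DESeq2 1.42.0, limma-voom (limma 3.58.1), other scalings, filters, sample sets and a block on the library number. The DESeq2 fit on the same miRNAs had its filters and outlier replacement off. The standard error is |log2FC| over the square root of F. Exact permutation tests compared log2(RPM + 0.1), and p-values were adjusted over all tested miRNAs. The prior count for CPM after TMM was 0.5, and the pseudocount for shares was 0.00322%. Scripts were tested on simulated data, with the pass condition set on edgeR at raised means and a low dispersion (spread beyond counting error) of 0.1. The data had a common dispersion of 3.03, so passing does not show how well the tests find changes here. All members, their let-7 neighbours and, for the 3 members with the most reads, the 3 miRNAs most like each were named. The members, lists and rules were chosen with earlier results of these data known. Separate libraries are separate rats by their labels, and RT-qPCR and patient data were not analysed here. Python 3.11.15, numpy 2.4.6, pandas 2.3.3, scipy 1.17.1 and matplotlib 3.10.9 were used.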

Additional observations from a re-analysis of the deposited data

Results flagged for a closer look

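In 8 measures of the PAB group (the RPM of the 7 tested members and their sum), 4 had a library far from the other PAB libraries by Dixon's test at 95%, and in each it was PAB library 6 that was high. Chance flags about 1 in 20 groups of normally distributed values, but these RPM values were skewed and often near 0. The share flagged over all tested miRNAs was not computed, and the measures share the same 6 libraries. The number of flags is thus a description and is not set against chance. PAB library 6 had 7.56 RPM of miR-10a-5p (97 reads), where the next PAB library had 1.85 RPM. It had 0.234 RPM of miR-100-5p (3 reads), 0.078 RPM of miR-99b-3p (1 read, the only one of the group) and 0.701 RPM of miR-125a-5p (9 reads). For miR-99b-3p any single read among libraries at 0 would stand apart in this way, so that it adds nothing to the other 3. PAB library 6 also held the most different miRNAs of the PAB group (131), and the part of this in the values was not tested.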

How the results depend on the processing

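The number of members called was 0 and became 1 with DESeq2 on the same miRNAs, 1 with DESeq2 defaults on all miRNAs and 1 with the totals implied by RPM. It was 0 in the other 19 alternatives, among them each of the 9 fits without 1 library. miR-10a-5p, miR-100-5p, miR-125a-5p and miR-99b-3p kept a log2FC below 0 in every alternative that could fit them. Over all alternatives the log2FC of miR-99a-5p ran from −1.93 (limma-voom) to 0.66 and was below 0 in 13 of 21. It was −1.36 with the totals implied by RPM and −1.41 with at least 10 reads in 3 libraries. miR-99a-5p had 0.23 with DESeq2 on the same miRNAs and on all, 0.66 with libraries 1 to 3 of each group alone (added after the data were seen) and −1.15 to 0.52 without 1 library. miR-99b-5p had −3.20 to 2.204 without 1 library. Without sham libraries 1 and 2 miR-125b-5p had 4.34, and 1.06 as a difference of log2(RPM + 0.1) (this one added after the data were seen). The cause was not tested. The labels number the libraries 1 to 3 in each group, but nothing ties a number to a shared batch, and same-numbered libraries did not deviate together (r of −0.09, −0.37 and 0.06 across miRNAs). With the replicate block on these 6 libraries, 0 members were called and miR-99b-5p had 1.08. With at least 10 reads required in 3 libraries only 4 of the 7 members could be fitted, and miR-99b-3p could not be fitted in 3 of the 9 fits without 1 library. Members with few reads are limited by depth.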

Other observations

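The miRNAs whose levels were most like those of the 3 most abundant members were looked up over the 9 libraries (Pearson's r of log2(RPM + 0.1), a description that includes the difference between the groups and the shared libraries). For miR-99a-5p these were miR-652-3p (r = 0.84, Spearman's rho = 0.92), miR-429 (r = 0.82, rho = 0.89) and miR-126a-3p (r = 0.80, rho = 0.72). miR-652-3p and miR-429 had 763 and 1063 reads in PAB library 2 and 558 and 499 reads in PAB library 3, the PAB libraries with high miR-99a-5p, and at most 2 reads in the other PAB libraries. Within the 6 PAB libraries alone their r with miR-99a-5p was 0.99 and 0.98. Each parted from miR-99a-5p in a sham library. In sham library 2 miR-429 had 1 read, where miR-652-3p had 351 and miR-99a-5p had 498, and in sham library 3 miR-652-3p had 1 read, where miR-429 had 355 and miR-99a-5p had 336.

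For miR-10a-5p the most alike were miR-193b-3p (r = 0.86, rho = 0.76, 47 reads in all), miR-374-5p (r = 0.86, rho = 0.80, 19 reads) and miR-30a-3p (r = 0.86, rho = 0.84, 146 reads), the last with 0 reads in all 6 PAB libraries. For miR-99b-5p the values were lower, with miR-423-3p at r = 0.73 (rho = 0.67), miR-375-3p at 0.69 (rho = 0.59) and miR-191a-3p at 0.67 (rho = 0.60).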
